A study of Mus musculus with 10 samples.

Results

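Ribosomal protein genes encode the proteins that, with ribosomal RNA, build the small and the large subunit of the cytoplasmic ribosome. They were chosen here by name alone: symbols made only of Rpl, Rps or Rplp, a number and optionally the ending a, x, l, al, l1 or l2. Of the 28125 genes of the scRNA-seq matrix, 82 carried such a symbol. Of these, 75 are the general genes used by all cells and 7 are like-paralogs, related copies whose symbols end in l, l1 or l2 (Rpl3l, Rpl7l1, Rpl10l, Rpl22l1, Rpl36al, Rpl39l and Rps27l). The general genes comprised 29 genes of the small subunit, 43 of the large subunit and the 3 genes of the P stalk (Rplp0, Rplp1 and Rplp2). Of the 75, 71 lie on autosomes and 4 on the X chromosome (Rpl10, Rpl36a, Rpl39 and Rps4x). All 82 also had a row in the scATAC-seq matrix.

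The transcripts of general ribosomal protein genes are abundant in growing cells, and many start with a run of pyrimidines, the 5′ terminal oligopyrimidine motif, through which their translation is regulated together. In the testis, the X chromosome is transcriptionally silenced in pachytene spermatocytes, so that general genes on the X, among them Rpl10, are transcribed little or not at all there. Rpl10l and Rpl39l are autosomal paralogs of Rpl10 and Rpl39 known for their expression in male germ cells.

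Nuclei of whole mouse testes were read by simultaneous scRNA-seq and scATAC-seq, with 1 library per condition and assay. The wild-type C57BL/6J mice were 11, 17 and 25 dpp old, and the other mice, also of C57BL/6J background, were 8 weeks old. The latter were Cre/+ mice, which carry the Stra8-Cre driver alone, and Nfya-CKO mice (Nfya fl/fl; Stra8-Cre), in which Cre, expressed from the Stra8 locus in germ cells before meiosis, is meant to remove part of Nfya, the gene of a subunit of the CCAAT-binding factor NF-Y. The matrices give 1 value per gene for each of 13 populations pooled over libraries: undifferentiated and differentiating spermatogonia (undiff. SpG, diff. SpG), preleptotene cells (pL), a leptotene and zygotene population (eL/L/Z), one reaching early pachytene (L/Z/eP), middle and late pachytene (mP/lP), diplotene (D), round and elongating spermatids (RS, ES), spermatogonia of the Nfya-CKO library (SpG Nfya-CKO), Sertoli cells, other somatic cells and an unknown population of 99 cells.

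The libraries held 30227701 to 64967271 UMIs, and the populations 743145 (unknown) to 48075153 (mP/lP). A value of 0.1 UMIs per 10000 thus stands for about 481 UMIs in mP/lP, 38.5 in ES and 7.43 in the unknown population. With 1 library per condition and libraries pooled in the matrix, no difference below has a replicate check, no p-value was computed, and neighbouring values cannot be told apart by a spread. Populations and libraries overlap only in part: cells from 8-week-old mice made up 7.97% of undiff. SpG, 84.5% of diff. SpG, 0.341% of pL, 27.9% of mP/lP, 77.0% of RS, 99.6% of ES and 100% of SpG Nfya-CKO, so that stage, age and library cannot be told apart in several comparisons. RNA of Nfya itself was 0.456 per 10000 in undiff. SpG, 0.667 in diff. SpG and 1.11 in SpG Nfya-CKO. That value was thus higher, not lower, where the label says the gene was deleted, and counts over the whole gene do not single out the deleted exons.

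Start sites were inspected first, because the pyrimidine motif is what the family is known for. RefSeq promoter windows on GRCm38.p6 were matched by symbol for 62 of the 82 genes, giving 74 windows. A run of at least 5 pyrimidines that covers the annotated start base was found in 27.03% of the 74 windows and in 10.1% of all 32851 windows of the table, and a run of at least 8 in 23.0% and 3.86%. The 6 windows with the longest runs are printed below with the start base as base 15 and the run in capitals, where it falls within the 28 bases shown, and beside them stand Rpl10l and Rpl39l, whose start base lies in no run of pyrimidines.
Rpl7a: TTCCCTCTTCTTTCTTTCTCCagcagcc
Rpl27a: acttcgtgagCTCCTCCCTTTTCCCTTT
Rpl34: CTTCCTTTTCCTCTTCCggggacggtgc
Rpl35: ggccccgCCCTTTCCTCTTTCTCTCgaa
Rpl15: tgggagaaagCCTTCTTCCTTTCCTCTg
Rpl14: ggcgggCCCTCTCTCTTCTCgctgagcg
Rpl10l: ttggcctccattttgcggctggcggtgg
Rpl39l: tcccaggcctttccggatttccggtggt

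These windows lie at chr2:26910793-26910820 (plus strand, Rpl7a), chr7:109519181-109519208 (plus, Rpl27a), chr3:130730324-130730351 (minus, Rpl34), chr2:39005118-39005145 (minus, Rpl35), chr14:18270973-18271000 (minus, Rpl15), chr9:120571503-120571530 (plus, Rpl14), chr12:66284388-66284415 (minus, Rpl10l) and chr16:10170214-10170241 (plus, Rpl39l). The run measured 21 bases in Rpl7a, 20 in Rpl27a and Rpl34, 18 in Rpl35, 17 in Rpl15 and 14 in Rpl14. For Rpl7a, Rpl34 and Rpl39l, the start used lies inside the annotated gene, whose bounds begin further upstream. Starts are those of the annotation and were not measured in these cells, so a gene whose annotated start is off by a few bases can miss the run.

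Among short motifs searched on both strands from 250 bases before to 50 bases after the start, CCGGAAG, a form of the ETS factor site, was present in 33.8% of the members' windows and 8.86% of all windows. GGGCGG, the GC box, was present in 59.5% and 35.7%, and AAGATGG, part of a YY1 site, in 16.2% and 6.34% (6.76% and 4.49% before the start alone). CCAAT, the pentamer that NF-Y recognises, was present in 29.7% of the members' windows against 37.4% of all, and TATAAA in 9.46% against 13.6%. AAGATGG can overlap CCGGAAG by its first 3 bases, and members' windows had a median GC content of 57.8% against 52.7% over all windows. The members thus stood above all windows for 3 motifs and below them for CCAAT and TATAAA.

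The 150 bases before the start are shown for both X-linked genes whose autosomal paralogs went the other way in RNA, with every match to these 5 motifs on either strand in capitals. Rpl10 (chrX:74270666-74270815, plus strand) had CCAAT starting 132 bases before the start, whereas Rpl10l (chr12:66284402-66284551, minus) had none of the motifs in this stretch. Rpl39 (chrX:37085223-37085372, minus) had TATAAA 96 bases before the start, and Rpl39l (chr16:10170078-10170227, plus) had CCGGAAG at 146 and 92 bases before it.
Rpl10: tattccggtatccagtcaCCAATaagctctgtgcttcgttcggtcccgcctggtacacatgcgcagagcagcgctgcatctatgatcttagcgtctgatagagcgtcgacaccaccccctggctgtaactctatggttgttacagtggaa
Rpl10l: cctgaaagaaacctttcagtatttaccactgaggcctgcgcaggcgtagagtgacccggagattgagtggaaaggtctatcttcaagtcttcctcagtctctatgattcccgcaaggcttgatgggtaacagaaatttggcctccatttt
Rpl39: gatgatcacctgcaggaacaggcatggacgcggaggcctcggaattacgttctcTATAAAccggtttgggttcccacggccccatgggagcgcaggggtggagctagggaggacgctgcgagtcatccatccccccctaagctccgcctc
Rpl39l: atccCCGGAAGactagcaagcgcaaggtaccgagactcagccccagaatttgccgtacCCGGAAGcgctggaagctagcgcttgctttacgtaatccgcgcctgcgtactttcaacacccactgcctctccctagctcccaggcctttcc

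General ribosomal protein RNA was highest at the start of the germ line series and lowest in round spermatids. Summed over the 75 general genes it was 233 UMIs per 10000 in undiff. SpG, 139 in diff. SpG, 193 in pL, 150 in eL/L/Z, 131 in L/Z/eP, 109 in mP/lP, 89.95 in D, 57.8 in RS and 92.7 in ES. RS thus held 0.248 of the sum of undiff. SpG and mP/lP held 0.467. The fall was not even, since diff. SpG lay below pL, and ES lay 1.60-fold above RS. The summed RNA of 3 transcripts retained in the nucleus (Malat1, Neat1 and Kcnq1ot1) was 5.45 in undiff. SpG, 8.25 in diff. SpG, 6.88 in pL, 12.9 in eL/L/Z, 18.0 in L/Z/eP, 16.7 in mP/lP, 13.8 in D, 12.8 in RS, 9.85 in ES, 10.4 in SpG Nfya-CKO, 28.2 in Sertoli cells and 31.0 in other somatic cells. The part of the share of nuclear RNA in the differences between populations was not tested. Outside the germ line series the sum was 120 in Sertoli cells, 140 in other somatic cells, 180 in the unknown population and 172 in SpG Nfya-CKO.

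Most members shared this course. Of the 9 germ cell populations of the series, undiff. SpG had the highest value for 51 of 75 general genes (68.0%), against 19.2% of the 15250 genes whose mean over the populations reached 0.05 per 10000, and RS had the lowest for 63 (84.0%), against 29.8%. All 75 general genes and 6 of the 7 like-paralogs passed that minimum, which Rpl3l did not. Between the highest and the lowest of the 9 populations, the ratio of value + 0.1 had a median of 3.82 over the general genes and 2.98 over all genes tested. The lowest ratio was 1.69, for Rpl38. The Pearson correlation of a general gene's log2(value + 0.1) with the mean of the other general genes over the 13 populations had a median of 0.85, and 62.7% of general genes were at 0.8 or above, against 4.35% of all genes tested. Rpl19 was closest to the mean course (r = 0.98), and Rpl38 (0.21), Rpl37 (0.23), Rps13 (0.31) and Rps26 (0.35) were the farthest from it. These points share libraries and depth, and the values are a description.

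**Figure D1:**
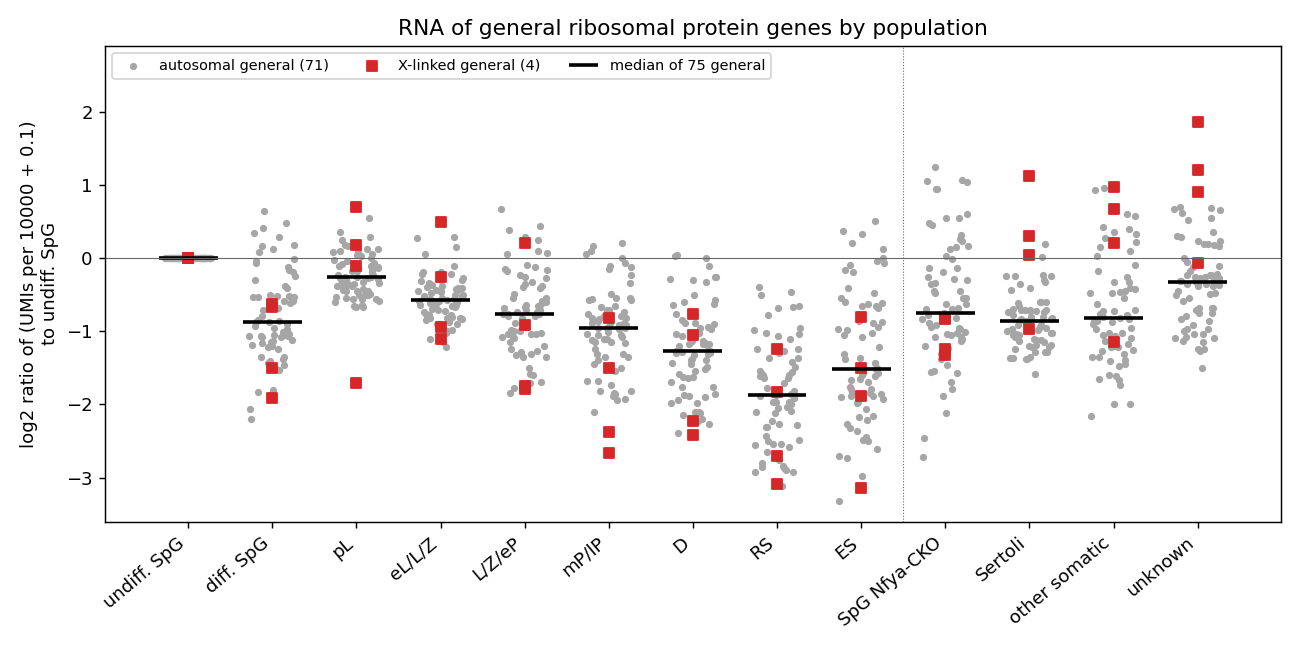
Each grey point is 1 of 71 autosomal general genes, each red square 1 of the 4 X-linked ones, and each black line the median of all 75; the vertical axis is the log2 ratio of UMIs per 10000 + 0.1 to undiff. SpG, and the dotted line separates the germ line series from the other populations. The median falls to -0.95 in mP/lP and -1.87 in RS and stands at -0.75 in SpG Nfya-CKO, and 2 X-linked genes, Rpl36a and Rps4x, hold the lowest values in mP/lP.

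Against undiff. SpG, 34 of 75 general genes were at least 2-fold lower in mP/lP and 0 at least 2-fold higher, while 20.8% of all genes tested were lower and 13.9% higher. The median log2 ratio was -0.95 (95% order-statistic interval over genes -1.10 to -0.83), against -0.14 over all genes tested, and 70 of 75 were below 0. Set against diff. SpG, mP/lP had 10 lower (15.2% of all genes tested) and 2 higher (7.97%), and the median of -0.21 was near the -0.25 over all genes tested, so the members did not stand below the other genes there. With 1 added in place of 0.1, 15 were lower in mP/lP than in undiff. SpG (3% of all genes tested). In RS, 66 were at least 2-fold lower (26.7% of all genes tested) and 0 higher (22.4%), the median was -1.87 (-2.05 to -1.63) against -0.27, and all 75 were below 0. Against diff. SpG, 36 were lower in RS (21.5% of all genes tested), with a median of -0.96 against -0.24. These log2 ratios, here and below, are of UMIs per 10000 after adding 0.1, which makes the ratios of weakly detected genes smaller.

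Taken step by step, the first fall, from undiff. to diff. SpG, was the largest of the steps in median, with 32 of 75 general genes at least 2-fold lower (6.28% of all genes tested) and 0 higher (9.57%), and a median log2 ratio of -0.87 against 0.10. It was followed by a rise to pL, with 12 of 75 general genes at least 2-fold higher in pL (1.27% of all genes tested) and a median of 0.58, among them Rpl7 (0.789 to 2.599 per 10000). Diff. SpG held a summed 7.85 per 10000 of 4 spermatid markers, all 4 of them higher there than in undiff. SpG (sum 0.469) and pL (0.0170), and 14.6 of 5 spermatocyte markers, all 5 also higher, against 7.49 and 10.3. The part of such RNA in the low values of diff. SpG was not tested. Set against undiff. SpG, pL had 1 gene at least 2-fold lower, Rps4x (6.19% of all genes tested), and a median of -0.26. From pL on, the medians of the steps were -0.36 in eL/L/Z, -0.20 in L/Z/eP, -0.24 in mP/lP, -0.29 in D and -0.60 in RS. The last was the step in which all 75 fell, 2 of them at least 2-fold (Rpl10a and Rpl28), against 3.34% of all genes tested.

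Somatic cells also held less of this RNA than undiff. SpG. In Sertoli cells 27 of 75 general genes were at least 2-fold lower (16.9% of all genes tested) and 1 higher, Rpl39 (0.334 to 0.841 per 10000; 10.1%). In other somatic cells 30 were lower (12.6%) and 0 higher (14.4%). The medians were -0.86 and -0.83, against -0.29 and 0.00 over all genes tested. Sertoli cells came mostly from the 11 dpp library (87.8% of cells).

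The 3 lowest of the general genes in mP/lP against undiff. SpG were Rpl36a (1.66 to 0.179 per 10000, log2 -2.66), Rps4x (0.850 to 0.0829, log2 -2.38) and Rps2 (10.05 to 2.27, log2 -2.10). The first pair is X-linked, and Rps2 is an autosomal gene of the small subunit near the mRNA entry channel. Near the other end stood Rpl36 (0.523 to 0.598, log2 0.16) and Rpl38 (0.848 to 0.918, log2 0.10), the last a large subunit gene known for its part in translating Hox mRNAs. Neither reached 1.5-fold, and Rpl36 was among the genes whose mRNA can hardly be told from copies (below). Rps20, Rps24 and Rps26, small subunit genes taken because their mean over the 13 populations was the highest in UMIs (5.44, 5.30 and 5.22, not divided by length), went from 8.02 to 5.34, from 8.34 to 4.69 and from 5.89 to 2.99 between the same populations.

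The genes of both subunits fell to about the same share of undiff. SpG, and so did Rplp1 of the P stalk, while Rplp0 and Rplp2 were lower. Summed RNA of the 29 small subunit genes in mP/lP was 0.483 of that in undiff. SpG, that of the 43 large subunit genes 0.468, and that of the 3 stalk genes 0.346. In RS the shares were 0.277, 0.231 and 0.160. The stalk binds the elongation factors to the ribosome. Rplp0, its base, was at 7.07 per 10000 in undiff. SpG, 2.35 in mP/lP and 0.879 in RS. Its acidic partner Rplp1 was at 3.34, 1.68 and 0.817 in the same populations, and the second acidic protein gene, Rplp2, at 4.85, 1.24 and 0.748. Rplp1 thus kept 0.504 of its undiff. SpG value in mP/lP and 0.245 in RS, Rplp0 0.333 and 0.124, and Rplp2 0.255 and 0.154. All 3 were lower in each step of this order.

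Most members had a higher RNA value in ES than in RS, but few reached 2-fold. Of 75 general genes, 66 were above 0, with a median log2 ratio of 0.49 (0.37 to 0.63) against 0.13 over all genes tested. However, only 7 reached 2-fold (among them Rpl22, Rpl32, Rps13, Rps15, Rps16 and Rps21), or 9.33% against 10.1% of all genes tested, a share near the background, and 0 fell 2-fold (10% of all genes tested). Among the highest were Rpl22 (0.853 to 2.05 per 10000), which encodes an RNA-binding protein that many cells can do without, and Rps21 (0.580 to 1.39). Among the lowest were Rpl35 (0.229 to 0.172) and Rpl10a (0.0989 to 0.0681). The ES population held a summed 41.1 per 10000 of 4 Sertoli markers, all 4 of them above their values in RS, where the sum was 4.28, and 31.3 of it was Clu. Its 3 Leydig markers, all higher too, summed to 4.85 against 0.617. The part of such RNA in the higher values of ES was not tested.

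Taken as a sum, the 4 X-linked general genes fell further than the autosomal ones up to pachytene. Their summed RNA was 3.31 per 10000 in undiff. SpG, 1.11 in diff. SpG, 2.87 in pL, 2.04 in eL/L/Z, 1.20 in L/Z/eP, 0.508 in mP/lP, 0.661 in D, 0.294 in RS and 0.505 in ES. The mP/lP sum was 0.154 of that in undiff. SpG, whereas the sum of the 71 autosomal genes kept 0.472. Rpl39 was an exception, with a log2 ratio of -0.81 in mP/lP against undiff. SpG beside an autosomal median of -0.94. Unlike mP/lP, Sertoli cells (3.20) and other somatic cells (3.42) had X-linked sums close to that of undiff. SpG. Their autosomal sums were 0.510 and 0.594 of the autosomal sum in undiff. SpG. The X-linked members moved in different directions there. From undiff. SpG to Sertoli and other somatic cells, Rpl36a went from 1.66 to 0.799 and 0.695, and Rpl39 from 0.334 to 0.841 and 0.749. Rps4x went from 0.850 to 1.07 and 1.42, and Rpl10 from 0.465 to 0.483 and 0.554.

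Each X-linked member has its own course. Rpl10 (chrX:74270816-74273135), whose protein joins the large subunit last, was at 0.465 in undiff. SpG, 0.542 in pL, 0.0999 in mP/lP, 0.173 in D and 0.0587 in RS. Rpl39 (chrX:37082518-37085222), a small protein of the exit tunnel, was at 0.334, 0.602, 0.147, 0.156 and 0.0836 in the same populations. Rpl36a (chrX:134585654-134588062) was at 1.66, 1.54, 0.179, 0.228 and 0.106, and Rps4x (chrX:102184941-102189391) at 0.850, 0.191, 0.0829, 0.104 and 0.0452. The first 3 were thus near or above their undiff. SpG level in pL and below it in mP/lP, while Rps4x was already low in pL.

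In log2 ratios of mP/lP against undiff. SpG, the X-linked members had a median of -1.94 and the autosomal ones -0.94, while all 487 X-linked genes tested had -0.99 and all 13593 autosomal genes -0.14. The difference between the X-linked and autosomal members, -0.99, rests on low values and was 0.03 when 1 was added in place of 0.1. From mP/lP to D the summed X-linked RNA rose while that of the autosomal members fell, and all 4 X-linked genes were above 0 in that step (median 0.20), against 8 of 75 general genes in all.

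The like-paralogs did not move as a group. Their summed RNA was 3.65 per 10000 in undiff. SpG, 2.65 in pL, 4.27 in mP/lP, 3.11 in D, 2.05 in RS and 1.62 in Sertoli cells. Of the 6 tested in mP/lP against undiff. SpG, 3 were above 0 and 3 below, with a median log2 ratio of 0.27. Rpl10l and Rpl39l had the highest value of all 13 populations in mP/lP and the lowest in Sertoli cells.

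Rpl10l (chr12:66283379-66284401), a retrocopy whose protein stands in for RPL10 in male meiosis, was at 0.583 per 10000 in undiff. SpG, 0.441 in diff. SpG, 0.278 in pL, 0.477 in eL/L/Z, 0.7996 in L/Z/eP, 1.20 in mP/lP, 0.677 in D, 0.393 in RS and 0.614 in ES. Outside the series it was at 0.309 in SpG Nfya-CKO, 0.0855 in Sertoli cells, 0.353 in other somatic cells and 0.227 in the unknown population. The order mP/lP, L/Z/eP, D, ES and undiff. SpG leads the list, and without replicates neighbours in it cannot be ranked firmly. Against undiff. SpG, Rpl10l was higher in mP/lP by 0.93 on the log2 scale while Rpl10 was at -1.498, and against pL the pair was at 1.79 and -1.68.

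Rpl39l (chr16:10170197-10174911) was also highest in mP/lP, followed within the germ line series by D, ES, L/Z/eP and undiff. SpG. It was at 0.944 in undiff. SpG, 0.757 in diff. SpG, 0.431 in pL, 0.660 in eL/L/Z, 1.003 in L/Z/eP, 1.505 in mP/lP, 1.13 in D, 0.824 in RS, 1.06 in ES, 1.22 in SpG Nfya-CKO, 0.157 in Sertoli cells, 0.688 in other somatic cells and 0.227 in the unknown population. In mP/lP it stood at 0.62 against undiff. SpG, where Rpl39 stood at -0.81, and at 1.59 against pL, where Rpl39 stood at -1.51. Over the 13 populations, Rpl39l and Rpl39 had a Pearson correlation of -0.79, and Rpl10l and Rpl10 one of -0.60. In Sertoli cells the pairs were the other way round, with Rpl10l at -1.88 and Rpl39l at -2.02 against undiff. SpG, and Rpl10 at 0.05 and Rpl39 at 1.12.

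Other somatic cells, of which 78.8% came from the library labelled Nfya-CKO, had 0.353 of Rpl10l and 0.688 of Rpl39l, above the Sertoli values. This population also held a summed 7.48 per 10000 of 5 spermatocyte markers and 3.34 of 4 spermatid markers, against 2.04 and 0.00772 in Sertoli cells, and all 9 markers were higher in it. The part of germ cell RNA in these 2 values was not tested.

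The genes whose course over the 13 populations was most like that of Rpl10l, among the 10386 genes whose mean reached 0.2, were Taf9 (r = 0.97), Ak6 (0.97), Cyct (0.96), Tdrd5 (0.96) and Ddx25 (0.96). For Rpl39l they were Pnpla7 (r = 0.98), Zfp35 (0.96), Ccdc9 (0.95), Spag1 (0.94) and Tmem97 (0.93). Except Spag1, which was highest in D, all of them were highest in mP/lP.

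**Figure D2:**
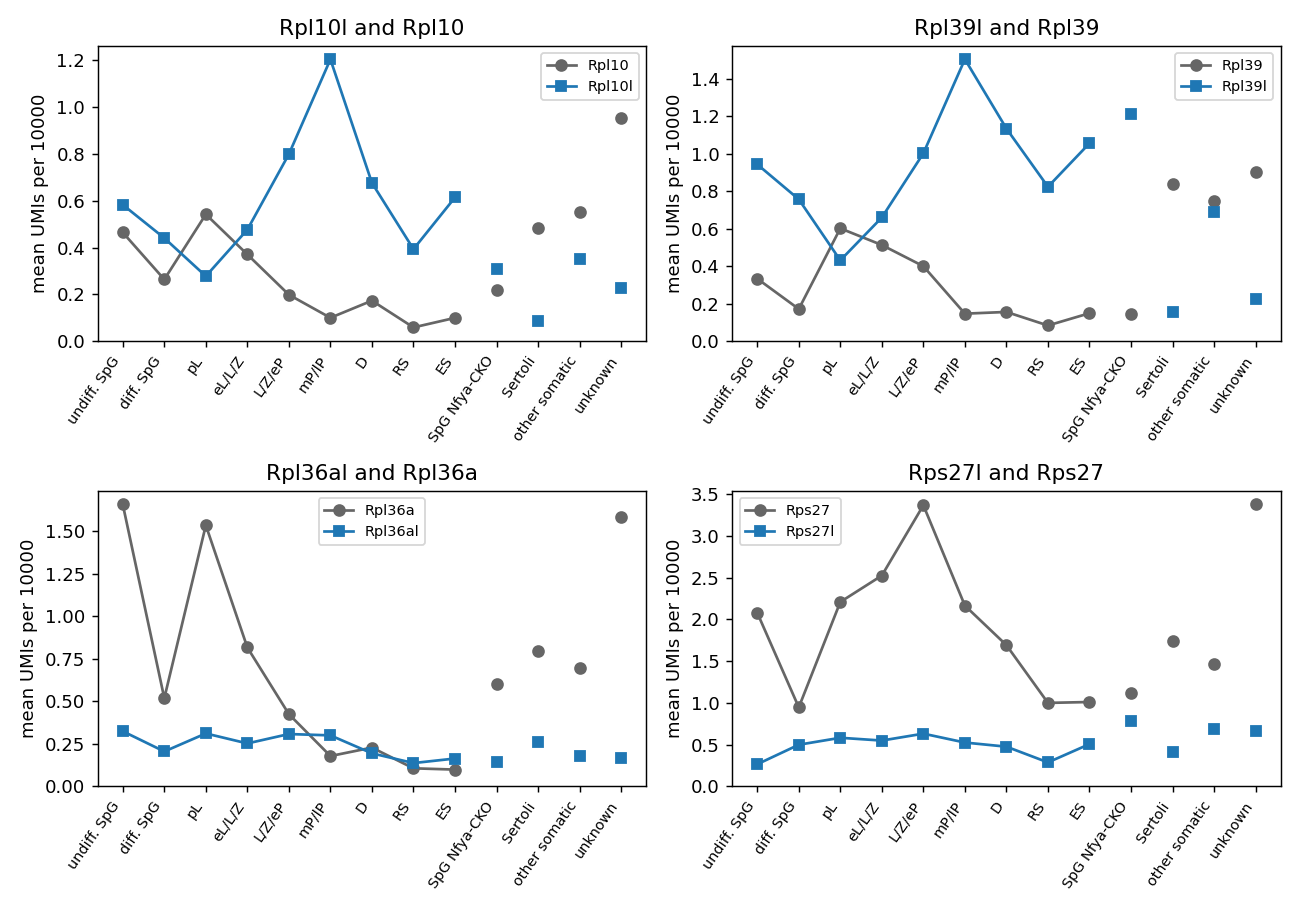
Mean UMIs per 10000 of 4 like-paralogs (blue squares) and their general partners (grey circles) are plotted over the 13 populations. Lines join the 9 of the germ line series. Values of a gene compare between populations. Levels of 2 genes do not, since they are not corrected for length or for reads lost to copies elsewhere in the genome. Rpl10l and Rpl39l peak in mP/lP at 1.20 and 1.505, where Rpl10 and Rpl39 are at 0.0999 and 0.147.

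Of the other like-paralogs tested, Rps27l was higher in mP/lP than in undiff. SpG, Rpl22l1 and Rpl7l1 were lower, and Rpl36al was at -0.085 on the log2 scale (0.054 with the median of all genes set to 0). Rpl36al (chr12:69182734-69184067), an autosomal copy of Rpl36a, was at 0.324 in undiff. SpG, 0.311 in pL, 0.300 in mP/lP and 0.137 in RS, and it differed from Rpl36a in mP/lP against undiff. SpG by 2.57 on the log2 scale, nearly all of it from the fall of Rpl36a. Rps27l (chr9:66944624-66949522), a p53 target, was at 0.266 in undiff. SpG, 0.583 in pL and 0.526 in mP/lP, so that its direction in mP/lP turned with the reference (0.77 against undiff. SpG and -0.13 against pL). Its partner Rps27 stood at 2.08, 2.21 and 2.17.

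Rpl22l1 (chr3:28805508-28807424), which can replace Rpl22 in the ribosome, was at 0.839 in undiff. SpG, 0.276 in pL and 0.367 in mP/lP, and its direction also turned with the reference (-1.01 and 0.31). Rpl22 was at 2.35, 2.66 and 1.44. Rpl7l1 (chr17:46773907-46782656), thought to act in large subunit assembly, fell in both, from 0.671 and 0.752 to 0.357, and Rpl7 was at 3.98, 2.599 and 1.89. Rpl3l (chr17:24727826-24736143), a gene of heart and skeletal muscle, was at 0.0246 in undiff. SpG and 0.0141 in mP/lP, and 0.1004 in SpG Nfya-CKO was its highest value.

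Many general genes had less RNA in spermatogonia from the library labelled Nfya-CKO than in undiff. SpG. Against undiff. SpG, 25 of 75 were at least 2-fold lower and 4 at least 2-fold higher (Rpl32, Rpl38, Rps21 and Rps26), while 3.08% of all genes tested were lower and 4.09% higher. The median log2 ratio was -0.75 (-0.92 to -0.45) against 0.01 over all genes tested. With 1 added in place of 0.1, 5 were lower (0.295% of all genes tested) and 1 higher (0.282%). Diff. SpG, of which 84.5% came from the 8-week-old Cre/+ library, was itself lower than undiff. SpG (above), with the spermatid and spermatocyte markers given there. Both comparisons share undiff. SpG, which came mostly from juvenile mice. Set directly against diff. SpG, SpG Nfya-CKO had 0 of 75 at least 2-fold lower (10.5% of all genes tested) and 3 higher (Rpl34, Rps21 and Rps26; 6.86%), and the median was 0.14 against -0.01. In the 24 genes with the most unique mRNAs (below) it was 0.38, with 7 of 24 below 0. Against undiff. SpG, the same 24 genes had a median of -0.27, with 14 below 0, 5 at least 2-fold lower and 2 at least 2-fold higher.

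Among the lowest general genes in SpG Nfya-CKO against undiff. SpG were Rpl7 (3.98 to 0.643 per 10000) and Rpl10a (1.22 to 0.204). In diff. SpG they were at 0.789 and 0.278, and in other somatic cells at 1.502 and 0.233. The 3 highest were Rps26 (5.89 to 14.1), whose protein lies at the mRNA exit channel, Rps21 (2.29 to 4.93) and Rpl38 (0.848 to 1.86). In diff. SpG they were at 6.64, 2.03 and 1.10, and in other somatic cells, mostly of the same library, at 7.92, 2.46 and 1.71. In SpG Nfya-CKO the summed small subunit RNA was 0.853 of that in undiff. SpG and the large subunit RNA 0.612. In diff. SpG these shares were 0.643 and 0.560.

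Of the 6 like-paralogs tested, Rps27l was above 2-fold in this comparison (0.266 to 0.784), Rpl39l went from 0.944 to 1.22, and Rpl10l from 0.583 to 0.309. X-linked members were all below 0, with a median log2 ratio of -1.04, and the autosomal ones had -0.69. This population had a median of 18361 UMIs per cell, against 9290 in undiff. SpG and 6188 in diff. SpG. Of its 4 undiff. SpG markers, Zbtb16 (4.15 against 8.74 per 10000) and Sall4 (2.08 against 4.88) were lower than in undiff. SpG, Gfra1 was at 1.20 against 1.08, and Uchl1, at 4.87 in other somatic cells, was higher (11.0 against 5.88). Leydig markers summed to 41.6 against 0.173, all 3 of them higher, with Insl3 at 39.8, and Sertoli markers to 26.5 against 4.03, all 4 higher, with Clu at 22.8. Nuclear-retained RNA summed to 10.4 against 5.45, mitochondrial RNA to 39.2 against 95.3, and the median mitochondrial share per cell was 0.354% against 0.904%. The parts of somatic RNA, nuclear and mitochondrial RNA, depth and age in the ribosomal protein values were not tested.

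**Figure D3:**
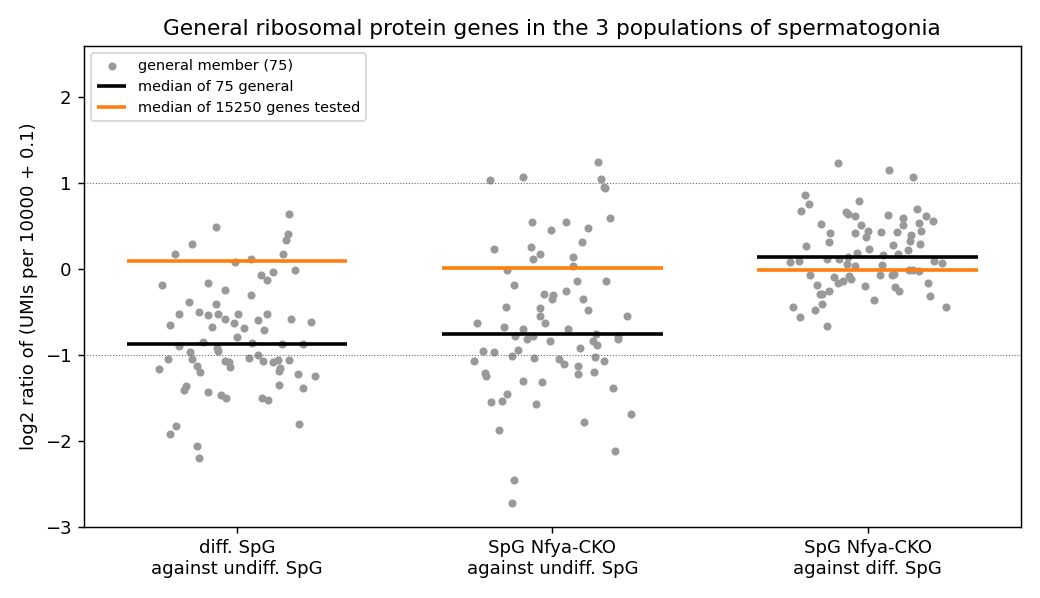
Points are the 75 general genes in 3 comparisons among spermatogonia, on the log2 ratio of UMIs per 10000 + 0.1; black lines are their medians, orange lines the medians of all 15250 genes tested and dotted lines 2-fold. The members lie below all genes when undiff. SpG is the reference (-0.87 and -0.75) and slightly above when SpG Nfya-CKO is set against diff. SpG (0.14).

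Reads that match more than 1 place in the genome were left out by the authors, and ribosomal protein genes have many processed pseudogenes. Of all 50-base windows of the longest mRNA of a gene, a median of 51.0% over the 75 general genes had no exact match elsewhere in GRCm38.p6, from 1.497% for Rpl36 to 100%, with 8 genes under 10%. The like-paralogs had a median of 82.9%, Rpl10l 73.7% and Rpl39l 100%, and the X-linked Rpl10, Rpl36a, Rpl39 and Rps4x 14.6%, 7.37%, 56.0% and 15.7%. The mean RNA value rose with this share across the general genes (Spearman rho 0.40, n = 75 genes, which are not replicates), so that levels of different genes are not compared here.

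In the genes with the most unique mRNAs the falls in mP/lP and RS were close in size to those of all 75, and the differences of diff. SpG and SpG Nfya-CKO from undiff. SpG were smaller. Among the 24 general genes with at least 60% unique windows, the median log2 ratio was -0.89 in mP/lP and -1.62 in RS against undiff. SpG, and all 24 were below 0 in both. In diff. SpG against undiff. SpG it was -0.60, with 6 of 24 at least 2-fold lower (6.28% of all genes tested). The 36 genes from 20% to under 60% had -0.996 there, and the 15 genes under 20% had -1.14. In SpG Nfya-CKO against undiff. SpG the 24 genes had -0.27, with 5 at least 2-fold lower (3.08% of all genes tested) and 2 higher (4.09%). The other classes had -0.80 and -1.02. In ES against RS the 24 genes had a median of 0.68, with all 24 above 0. Whether the reads lost to copies play a part in these differences was not tested.

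**Figure D4:**
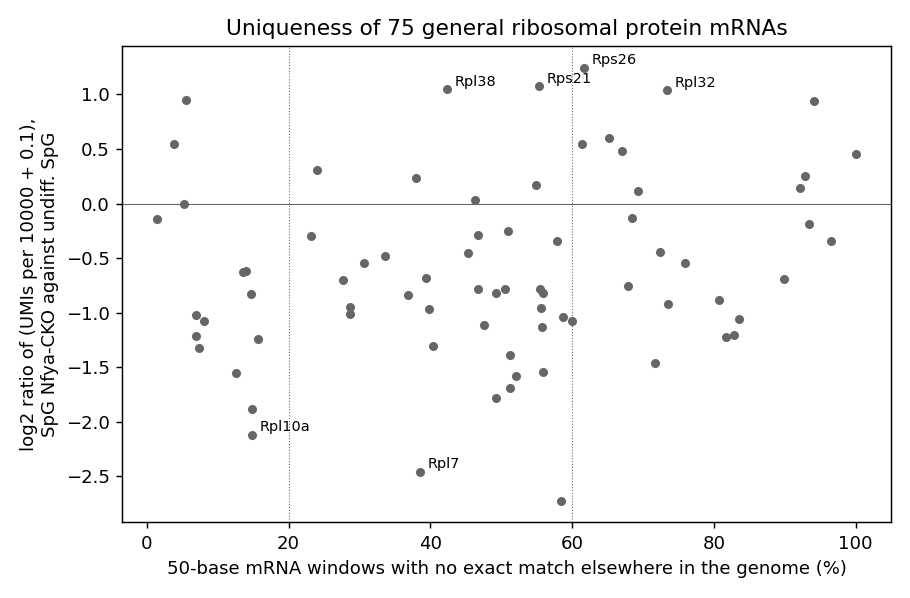
Each point is 1 of 75 general genes, with the percent of 50-base mRNA windows that have no exact match elsewhere in the genome on the horizontal axis and the log2 ratio of SpG Nfya-CKO against undiff. SpG on the vertical axis; dotted lines mark 20% and 60%. Genes above 60% have a median of -0.27 and those below 20% one of -1.02, and both ranges overlap.

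Accessibility of the general genes stayed nearly level while their RNA fell. The scATAC-seq values were scaled to 1000000 over the nuclear genes of a population, since mitochondrial genes took 31.2% (pL) to 64.5% (other somatic) of all signal. The median over the 71 autosomal general genes was 61.3 in undiff. SpG, 70.8 in diff. SpG, 70.0 in pL, 71.3 in eL/L/Z, 68.7 in L/Z/eP, 66.5 in mP/lP, 67.2 in D, 66.5 in RS, 65.8 in ES, 56.2 in SpG Nfya-CKO, 70.7 in Sertoli cells and 61.97 in other somatic cells. All lie well above the median of all nuclear genes, 12.2 to 25.3. On this scale the median log2 ratio of the 75 general genes was 0.11 in both mP/lP and RS against undiff. SpG, populations in which the RNA median was at -0.95 and -1.87. With mitochondrial genes kept in the scale, the mP/lP value was -0.45 and all nuclear genes were at -0.61, and 4 of 75 general genes were at least 2-fold lower against 33% of all nuclear genes tested. Across the 75 genes, the RNA and scATAC-seq log2 ratios had a Spearman rho of 0.05 in mP/lP and 0.11 in RS. The study's methods define promoter accessibility by coverage around the start site in merged tracks, and whether this matrix was made so is not given in the sources used here.

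X-linked members had lower accessibility in late germ cells, where autosomal ones did not. On the nuclear scale their median was 37.8 in undiff. SpG, 40.6 in pL, 34.3 in eL/L/Z, 30.5 in L/Z/eP, 24.3 in mP/lP, 20.1 in D, 19.3 in RS, 22.7 in ES, 39.6 in Sertoli cells and 34.5 in other somatic cells. The median log2 ratio against undiff. SpG was -0.61 in mP/lP, -0.87 in D and -0.93 in RS, where the autosomal members had 0.14, 0.17 and 0.12. Rps4x went from 37.5 to 18.3 in mP/lP and 11.7 in RS, Rpl36a from 38.2 to 23.0 and 17.4, and Rpl39 from 37.0 to 25.6 and 21.2. Rpl10 differed, at 38.3, 34.3 and 41.4. For comparison, with mitochondrial genes in the scale, all 479 X-linked genes tested had a median of -0.39 in mP/lP against -0.62 for 15606 autosomal genes, and the X-linked members -1.13.

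Both germ cell paralogs were open in germ cells and low in somatic ones. Rpl10l had 34.4 in undiff. SpG, 22.6 in pL, 40.8 in mP/lP, 41.1 in D, 55.5 in RS, 6.98 in Sertoli cells and 9.25 in other somatic cells. Rpl39l had 27.4, 20.7, 35.1, 30.7, 32.2, 5.17 and 12.04 in the same populations. Unlike its RNA, the Rpl10l value was higher in RS than in mP/lP.

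**Figure D5:**
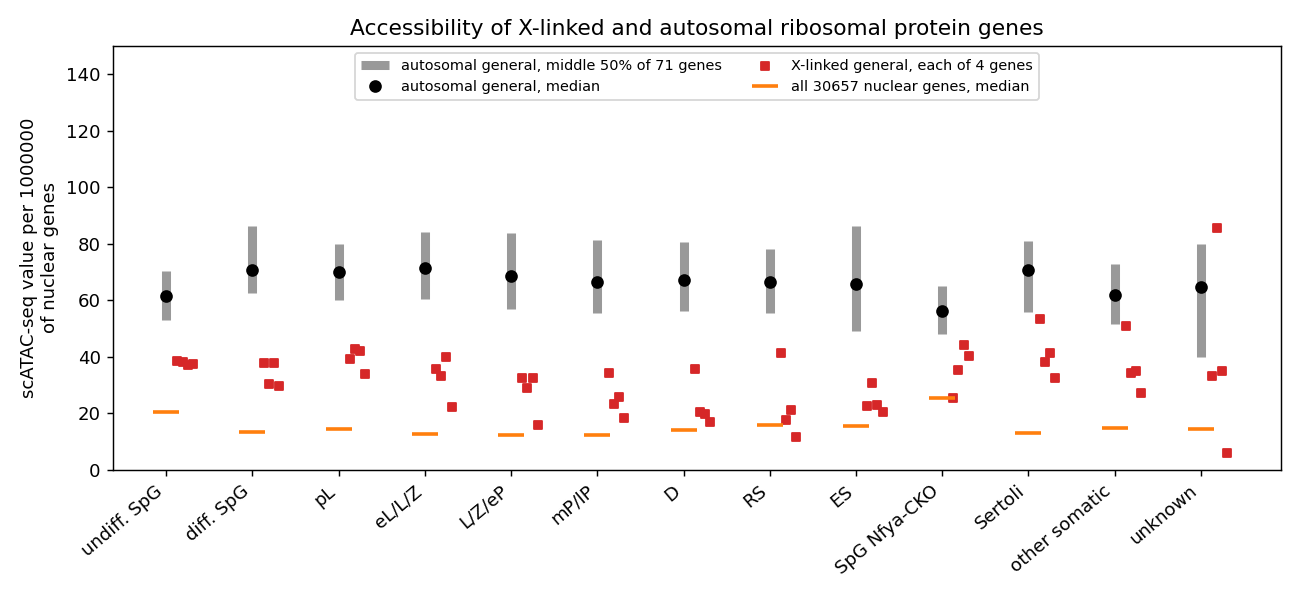
scATAC-seq values per 1000000 of nuclear genes by population: black circles are medians of the 71 autosomal general genes, grey bars their middle 50%, red squares the 4 X-linked genes, and orange marks the median of all 30657 nuclear genes. The autosomal medians stay between 56.2 and 71.3, while the X-linked median goes from 37.8 in undiff. SpG to 19.3 in RS.

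In SpG Nfya-CKO against undiff. SpG, accessibility of the general genes was slightly lower. The median log2 ratio with mitochondrial genes in the scale was -0.27 (-0.29 to -0.18), 64 of 75 were below 0 (65.1% of all nuclear genes tested), and 0 were 2-fold apart (0.313% of all nuclear genes tested were lower and 0.181% higher). All nuclear genes had -0.13, and the 1823 with the highest signal in undiff. SpG, the top decile of those tested, had -0.35, while 12 of 75 general genes were in the top decile of all 30657 nuclear genes. On the nuclear scale the members had -0.14, with 50 of 75 below 0, and all nuclear genes 0.03. The lowest against undiff. SpG were Rpl10 (22.7 to 13.7 per 1000000 of all genes), Rps25 (48.2 to 29.7) and Rps14 (41.5 to 27.1), and the highest Rps23 (25.6 to 28.9), Rpl24 (23.1 to 25.3) and Rpl39 (21.9 to 23.9). In the same comparison, general genes with CCAAT in a promoter window had a median of -0.19 (17 genes) and those without -0.26 (38 genes), against -0.21 and -0.10 for all genes. In RNA the same members were at -0.88 with and -0.72 without the motif, against -0.03 and 0.04 for all genes. The mean TSS enrichment was 7.99 in SpG Nfya-CKO and 12.7 in undiff. SpG, and its part in these values was not tested. Against diff. SpG, with mitochondrial genes in the scale, the members had -0.56, all nuclear genes -0.19 and the 1823 with the highest signal in diff. SpG -0.89, and 3 of 75 were at least 2-fold lower (8.65% of all nuclear genes tested). On the nuclear scale the members had -0.30 and all nuclear genes 0.098.

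Genes that work with the ribosome followed the members in part. Of a list of 4 subunit genes outside the name rule, all were at least 2-fold lower in mP/lP than in undiff. SpG (20.8% of all genes tested were lower and 13.9% higher), among them Rpsa, a small subunit protein gene, at 5.28 and 0.789 per 10000, Fau, which encodes a small subunit protein fused to a ubiquitin-like one, at 1.87 and 0.808, and Rack1, a scaffold on the small subunit, at 2.45 and 0.742. Rps3a1, another small subunit gene that the name rule misses and that was added after its values were seen, was at 4.40 and 1.07. Of a list of 8 elongation and related genes, which includes Tpt1, 5 were at least 2-fold lower and 0 higher. Eef1a1, which brings aminoacyl-tRNA to the ribosome, went from 21.97 to 5.10, Eef2, the translocation factor, from 8.89 to 2.48, Eef1b2 from 3.30 to 0.917, Eef1g from 3.10 to 0.853 and Tpt1 from 2.74 to 1.07. Eif5a (6.60 to 4.24), Eef1d (2.601 to 1.61) and Eef1e1 (0.321 to 0.161) were less than 2-fold apart. Eef1d was at 4.73 in RS and 11.3 in ES. The fall was not even. In diff. SpG the 8 genes summed to 16.7 per 10000 (49.5 in undiff. SpG and 16.4 in mP/lP). Eef1a1 was at 2.76 in diff. SpG, below mP/lP. The sum was higher again in pL (31.7) and eL/L/Z (25.1), and was 17.3 in L/Z/eP. Of the 8 genes, only Eef1d was lower in pL than in diff. SpG.

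Ribosome biogenesis genes, which make and assemble the subunits, had 14 of 32 at least 2-fold lower in mP/lP and 1 higher (20.8% and 13.9% of all genes tested), with a median log2 ratio of -0.83. Genes of the mitochondrial ribosome, a separate particle, had 3 of 76 tested lower and 4 higher, and their median of -0.11 was near the -0.14 of all genes tested. In SpG Nfya-CKO against undiff. SpG, the medians were -0.77 for the 4 subunit genes and -0.98 for the elongation and related genes. Eef1a1 was at 1.80 per 10000 there (2.76 in diff. SpG). The medians were 0.03 for biogenesis and 0.11 for the mitochondrial ribosome.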

How the data were processed

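Nuclei of mouse testes were read by scRNA-seq and scATAC-seq of the same nuclei. For scRNA-seq, the authors aligned reads to mm10 with STAR 2.7.10b, kept uniquely mapped reads, collapsed UMIs, removed cells with few genes or a high share of mitochondrial UMIs with Seurat 5.2.1, and removed doublets. For scATAC-seq, they aligned with BWA 0.7.12 and kept cells above a minimum of fragments and of TSS enrichment in ArchR 1.0.3 (versions per the submitters' processing notes). Whether intronic reads were counted, and which region was counted per gene for the scATAC-seq matrix, are not given in the sources used here.

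The authors deposited 1 matrix per assay with a natural log of 1 plus a mean per population, which sums to 10000 after exp(value) - 1, as found from the values. They also deposited UMI and fragment counts per cell, each cell's percent of UMIs from mitochondrial genes, and the TSS enrichment, a ratio of coverage at start sites to flanks. Another 20 columns of these cell tables were not used, and 49 cells named no library.

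RNA was compared as log2(value + 0.1) over the 15250 genes whose mean reached 0.05 per 10000, and scATAC-seq as log2(value + 1) over genes whose mean reached 5 per 1000000. The tools were pandas 2.3.3, scipy 1.17.1 and numpy 2.4.6 under Python 3.11.15. A gene counted as called at 2-fold, by size alone. Intervals of medians are 95% order-statistic intervals over genes, which cover neither libraries nor animals. The ratio, the calls and the medians were tested on simulated data. Genes named were the like-paralogs and their partners, the X-linked and P-stalk genes, the 3 of highest mean RNA, the 3 highest and 3 lowest in mP/lP against undiff. SpG, ES against RS and SpG Nfya-CKO against undiff. SpG (the last also in scATAC-seq), the 2 short lists, and the 5 genes most correlated with Rpl10l and Rpl39l; a few others were named because they make up a count or end a range, after their values were seen. A few genes that this rule names are not reported here. Members, lists and rules were chosen with earlier results of these data known. Promoters, gene positions and sequences are those of RefSeq for GRCm38.p6, and mRNAs for the window count those of GENCODE vM21.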

Additional observations from a re-analysis of the deposited data

How the results depend on the processing

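No paired analysis was possible because each condition had 1 library. The alternatives on unique mRNA windows and on snoRNA genes were chosen after seeing the data. Of 180 values under other settings, 119 stayed close to the reported ones, 49 moved and 12 changed sign; the causes were not tested. With 1 added in place of 0.1, 15 general genes were lower in mP/lP (3% of all genes tested; median -0.62), the RS median was -1.08, 0 genes were higher in ES than in RS (1.13%; median 0.21), 5 were lower (0.295%) and 1 higher (0.282%) in SpG Nfya-CKO, Rpl10l less Rpl10 was 0.89, Rpl39l less Rpl39 0.58, Rpl36al less Rpl36a 1.15 and Rpl22l1 less Rpl22 0.029, and X-linked less autosomal members was 0.027. With 0.01 the RS median was -2.06, 12 were higher in ES (19.2%), Rpl10l less Rpl10 was 3.14 and X-linked less autosomal -1.64 (-0.36 in D with 0.1). With the median of all genes set to 0, the medians were -0.81 in mP/lP, -1.60 in RS and 0.36 in ES against RS (2 genes higher, 7.83% of all), Rpl36al was at 0.054 and Rpl3l at 0.013. Against diff. SpG, 10 were lower (15.2%) and 2 higher (7.97%) in mP/lP (median -0.21, all genes -0.25), 36 lower (21.5%) in RS (-0.96, all genes -0.24), and 0 lower (10.5%) in SpG Nfya-CKO (0.14). Against pL, medians were -0.70 in mP/lP and -1.59 in RS, Rpl10l was at 1.79 (3.47 less Rpl10), Rpl39l at 1.59 (3.10 less Rpl39), Rpl22l1 at 0.31 (1.15 less Rpl22), Rps27l at -0.13 (-0.10 less Rps27) and Rpl7l1 less Rpl7 at -0.46. At 1.5-fold, 58 were lower in mP/lP (32.6% of all genes tested), 34 higher in ES (24%), and 43 lower (10.5%) and 7 higher (12.5%) in SpG Nfya-CKO, and at 3-fold 13 (9.56%), 0 (3.1%), 6 (0.656%) and 0 (1.3%). With at least 60% unique windows, medians were -1.62 in RS, 0.68 in ES against RS and -0.27 in SpG Nfya-CKO. Of these genes, 20.8% were higher in ES than in RS (10.1% of all genes tested). In SpG Nfya-CKO 20.8% of them were lower (3.08% of all genes tested) and 8.33% higher (4.09%). For scATAC-seq, scaling without mitochondrial genes gave 0.11 in mP/lP and -0.14 in SpG Nfya-CKO, and pL as the reference, with mitochondrial genes in the scale, gave -0.85 in mP/lP, -0.27 in RS and -0.66 in SpG Nfya-CKO (all nuclear genes -0.82, -0.30 and -0.29). Without them these were -0.081, -0.068 and -0.32 (all nuclear genes -0.0066, -0.014 and 0.10). AAGATGG was in 6.76% of the members' windows before the start alone, against 4.49% of all windows. Depth limits ES and the unknown population most.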
